A study of Mus musculus with 5 samples.

Results

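Killer lectin-like receptors are C-type lectin-like membrane proteins that natural killer (NK) cells and subsets of T cells use to tell healthy from infected or transformed cells. Most of them are encoded together in the NK gene complex, where families of activating and inhibitory receptors lie beside the Clec2 genes that encode ligands of some of them. In T cells such receptors are known mainly from antigen-experienced and innate-like CD8+ cells, whereas naïve CD8+ T cells are known to show few of them on their surface. The genes described here are all those of the mm9 annotation whose symbol begins with Klra, Klrb, Klrc, Klrd, Klre, Klrg, Klri, Klrk or Clec2, 39 of 37310 annotated genes. Of these, 38 lie on chromosome 6 and encode lectin-like receptors, their ligands or pseudogenes of both. The other one, Klraq1 on chromosome 17, matched by the letters of its symbol only, encodes no lectin-like receptor, and was kept apart. A DNase peak was assigned to a gene when its summit lay in the gene body or within 20 kb of it.

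Chromatin accessibility was measured by DNase-seq, in which DNase I cuts open chromatin and the released fragments are sequenced, in naïve splenic CD8+ T cells. Of the 5 replicates, 3 were WT, and 2 (dKO) came from mice whose mature T cells lack the transcription factors Tcf1 and Lef1. Both genotypes carried the human CD2-Cre transgene, which is active mainly in mature T cells, and a Rosa26-GFP reporter that Cre switches on. The WT mice were Tcf7+/+ Lef1+/+ and the dKO mice Tcf7 fl/fl Lef1 fl/fl, Tcf7 being the gene of Tcf1. GFP+ TCRβ+ CD62L-high CD8+ splenocytes with low to intermediate CD44 were sorted from young adult C57BL/6 mice of both sexes, and GFP stands in for deletion in a sorted cell without measuring it. Each genotype is available as 1 list of peaks called on its pooled replicates, so that no spread between replicates and no test between the genotypes can be given, and every comparison below sets one pool against the other. The WT list held 31116 peaks from 83923734 fragments and the dKO list 25525 peaks from 62242963 fragments, a 1.35-fold difference in depth. The peak lists hold no reads over the deleted exons and thus do not check the deletion. The Lef1 gene had 18 WT and 11 dKO peaks and Tcf7 5 and 4. Promoter peaks, within 1 kb of an annotated start, were present at 7 of 7 T cell marker genes in WT and 6 of 7 in dKO, at 4 of 4 naïve T cell markers in both, at 0 of 5 B cell and 0 of 5 NK cell markers in both, and at 1 of 5 myeloid markers, Itgam, in WT and 0 of 5 in dKO. The NK markers included Klrb1c and Klra8 of the genes described here.

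Of the 38 receptor genes, 23 had at least 1 peak in the WT list and 22 in the dKO list, with 41 WT and 38 dKO peaks in all. Among the 34 protein-coding ones this came to 64.7% in WT and 61.8% in dKO, beside 66.7% and 63.7% of all 22380 protein-coding genes. Peaks at promoters were less frequent. The same 5 genes, Clec2i, Clec2d, Klrd1, Klra5 and Klra1, had a promoter peak in each list, 14.7% of the protein-coding receptor genes, beside 45.9% of all protein-coding genes in WT and 42.1% in dKO. The lists also hold peaks below the 4-fold enrichment that was a further criterion for a peak in the methods, among them 7 of the 41 WT and 5 of the 38 dKO peaks here. With all those criteria applied, 34 WT peaks at 19 receptor genes and 33 dKO peaks at 20 remained, and the WT promoter peaks of Klra5 and Klra1, at 3.41 and 3.40, were not among them. Of the 47 sites, a site being the merged peaks of both lists that overlap by at least 1 bp, 33 lay outside every annotated gene and promoter. No peak in either list was assigned to 12 genes: Klrb1a, Clec2j, Clec2h, Klrb1-ps1, Klra17, Klra11, Klra8, Klra14, Klra7, Klra10, Klra23 and Klra2. These include Klra8, which encodes Ly49H, the activating receptor for a cytomegalovirus protein. Sites are named below by the nearest start of a receptor gene and the distance of the summit from it in bp, minus for upstream and plus for downstream.

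**Figure D1:**
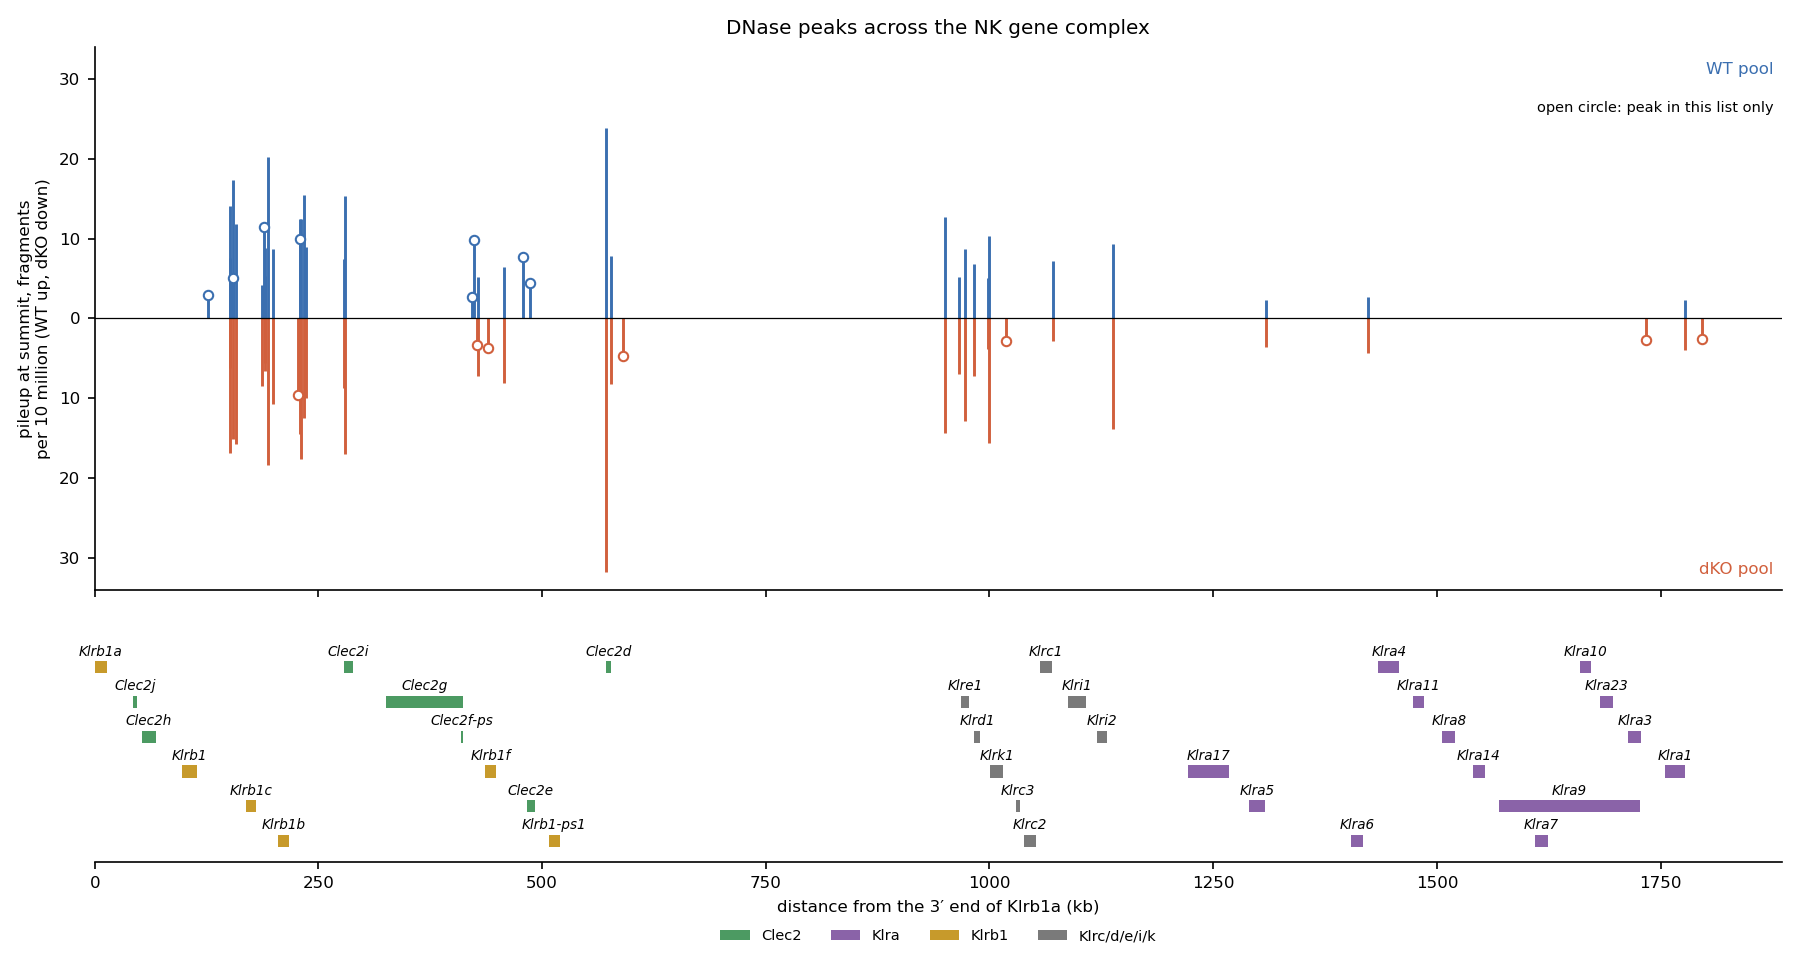
Pileup at each peak summit, scaled to 10000000 fragments of the pool, against distance in kb from the 3′ end of Klrb1a, with WT bars upward, dKO bars downward, open circles for peaks found in 1 list only, and genes drawn to scale and coloured by family below. Peaks crowd around Klrb1c and Klrb1b, the highest stands at the Clec2d promoter with 23.8 in WT and 31.8 in dKO, and the Klra genes on the right have few and low peaks.

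The 3 promoters below are examples from different families and not a contrast between the families. The other Clec2 promoter site, Clec2i-66, ranked at percentile 31.4 of fold enrichment among WT peaks and 29.2 among dKO peaks. Klrd1-26 stood higher, at 45.2 and 36.7. Clec2d-126 was the highest-ranking peak of the receptor genes in both lists, Klrd1-26 the promoter peak of the gene whose product all NKG2 receptors of the NKG2A, C and E type need, and Klra5-53 a weak peak at a Ly49 promoter. The mm9 reference sequence of the summit and 100 bp on each side of it is given on the plus strand, 5′ to 3′, in lower case, with capitals for the letters TGANTCA (bound by AP-1 factors) and TGTGGTT (bound by Runx factors) on either strand. The windows are chr6:129130407-129130607 for Clec2d-126, chr6:129541674-129541874 for Klrd1-26 and chr6:129867621-129867821 for Klra5-53.
Clec2d-126: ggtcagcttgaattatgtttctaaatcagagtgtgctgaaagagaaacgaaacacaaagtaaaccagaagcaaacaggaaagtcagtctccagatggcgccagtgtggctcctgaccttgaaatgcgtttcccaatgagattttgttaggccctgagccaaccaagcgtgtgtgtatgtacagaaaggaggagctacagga
Klrd1-26: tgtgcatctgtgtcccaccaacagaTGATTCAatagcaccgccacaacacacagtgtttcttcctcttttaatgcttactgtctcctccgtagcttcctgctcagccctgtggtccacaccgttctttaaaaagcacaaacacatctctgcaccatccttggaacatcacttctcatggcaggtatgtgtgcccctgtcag
Klra5-53: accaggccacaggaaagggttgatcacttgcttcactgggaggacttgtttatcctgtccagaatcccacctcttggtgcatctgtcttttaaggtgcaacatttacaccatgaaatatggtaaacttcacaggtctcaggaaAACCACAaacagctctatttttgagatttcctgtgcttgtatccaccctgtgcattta

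Among the ligand genes, Clec2d encodes Clr-b, which the inhibitory receptor Klrb1b recognises and most healthy cells display. Its promoter site was covered at the summit by 200 fragments in WT and 198 in dKO, or, scaled to 10000000 fragments of each pool, 23.8 and 31.8. This peak ranked at percentile 98.6 of fold enrichment among all WT peaks and 99.8 among all dKO peaks, fold enrichment being the pileup divided by the background that the caller estimated nearby. The ratio of the scaled pileup, dKO over WT, was 1.46, with a 95% counting interval of 1.19 to 1.78, after the ratios of all 21606 sites found in both lists had been centred on their median. Such an interval covers counting error only and not the difference between mice. A second Clec2d site, in an exon 5.6 kb past the start, had 66 fragments in WT and 51 in dKO, a ratio of 1.14 (0.774 to 1.66). Another, Clec2d+19351, was found in dKO only, with 29 fragments, and lay in a repeated sequence with 294 near-identical copies in the genome.

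Clec2i encodes Clr-g, a ligand of Klrb1f. Its promoter site lay 66 bp upstream of the start, inside an intron of the overlapping gene BC035044, with 62 fragments in WT and 54 in dKO. The stronger site Clec2i+1559 in intron 1 had 129 fragments in WT and 106 in dKO, at percentiles 82.0 and 79.9. A 98.0% identical copy of this site lies 83.8 kb away and overlapped no peak in either list. The ratios of the promoter and intron sites were 1.28 (0.874 to 1.88) and 1.21 (0.927 to 1.58), and both intervals hold 1.

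Clec2e was the 1 Clec2 gene of the NK gene complex with peaks in WT and none in dKO. It belongs to the same ligand family as Clec2d. Clec2e+12597, beyond the 3′ end of the gene with the summit at chr6:129038337, had 65 WT fragments and stood at percentile 74.6 of the WT list. Clec2e+5576 in intron 2 had 37 fragments, at percentile 37.5. The dKO list gives no value at either place. Clec2l, far from the complex and shared in its 20 kb window with Klrg2, had 1 WT peak 12.3 kb upstream, of 40 fragments, and none in dKO. Clec2g and the pseudogene Clec2f-ps overlap in the annotation and share their sites, of which Clec2f-ps+12104 was found in WT only with 22 fragments.

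The Klrb1 genes encode the NKR-P1 receptors, Klrb1c being NK1.1, the activating receptor by which mouse NK cells are commonly recognised. These 6 genes held 21 of the 41 WT and 18 of the 38 dKO peaks, and none of them had a promoter peak in either list. The Klrb1c and Klrb1b genes alone held 16 WT and 14 dKO peaks, between and beside the gene bodies. The pileups there were high, 35 to 170 fragments in WT and 35 to 114 in dKO, but their percentiles reached only 69.1 in WT and 78.6 in dKO, since the local background was high too. The median background at these peaks was 14.0 fragments in WT and 9.97 in dKO, above that of 98.5% of all WT and 98.3% of all dKO peaks. Whether this background moved the calls there was not tested.

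The site with the highest pileup of the group, Klrb1c-13938 between Klrb1c and Klrb1b, had 170 fragments in WT and 114 in dKO with a ratio of 0.987 (0.772 to 1.26). Klrb1c+24223, next in WT, had 145 fragments there and 94 in dKO, and a ratio of 0.954 (0.728 to 1.25). These sites did not differ between the pools beyond counting error. Klrb1c-7291, 7.29 kb upstream of the Klrb1c start with its summit at chr6:128746524, went from 35 fragments in WT to 53 in dKO, and from percentile 2.61 to 29.2. Its ratio of 2.23 (1.43 to 3.52) was the highest of the 31 sites found in both lists and the single one above 2. Its WT fold enrichment of 3.39 was below the 4-fold criterion, and with fold enrichment in place of pileup its log2 ratio was 0.93, short of 2-fold. Klrb1b-13350, with 105 and 110 fragments, and Klrb1c+21525, with 99 and 98, had ratios of 1.54 (1.17 to 2.03) and 1.46 (1.09 to 1.95).

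Klrb1c lies in a tandem duplication, which its sites show. The site Klrb1c+28288 and the site Klrb1c-9764, 38.8 kb apart, were 95.5% identical over 198 aligned bp. The pair Klrb1c+27684 and Klrb1c-10318 was 94.3% identical and the pair Klrb1c+24223 and Klrb1c-13938 87.8%. Within the first pair the lists differed: Klrb1c+28288 had 118 fragments in WT and 105 in dKO, whereas Klrb1c-9764 had 96 in WT and no dKO peak. The 2 aligned stretches, chr6:128710116-128710312 and chr6:128748900-128749097 of mm9 on the plus strand, are shown with capitals at the 8 bases that differ and at the 1 base that one of them lacks.
Klrb1c+28288: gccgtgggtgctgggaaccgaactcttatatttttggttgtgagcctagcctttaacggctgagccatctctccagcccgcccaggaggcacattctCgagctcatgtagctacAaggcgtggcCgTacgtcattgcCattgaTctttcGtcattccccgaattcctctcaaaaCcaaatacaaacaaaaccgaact
Klrb1c-9764: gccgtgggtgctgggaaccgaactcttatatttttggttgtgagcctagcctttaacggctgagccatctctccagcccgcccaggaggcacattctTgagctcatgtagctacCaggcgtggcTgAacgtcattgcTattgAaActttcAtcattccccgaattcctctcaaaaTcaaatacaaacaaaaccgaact
Only uniquely mapped reads were kept, and how far the likeness of the 2 stretches bears on the peak seen in WT only was not tested. Klrb1c-7291 has a 94.9% identical copy 241 kb away, at the site Klrb1f-8817, which had 44 fragments in WT and 45 in dKO, a ratio of 1.51 (0.971 to 2.34).

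Other Klrb1 sites were found in one list only. In WT these were Klrb1-13273 with 25 fragments, Klrb1c+24453 with 42, Klrb1b-12120 with 84 and Klrb1f-12318 with 82. Klrb1f-12318, upstream of the gene of the Clr-g receptor with its summit at chr6:128983601, stood highest among them, at percentile 70.3 of the WT list. The others ranked low, Klrb1-13273 at percentile 17.7, Klrb1c+24453 at 0.974 and Klrb1b-12120 at 21.9. In dKO they were Klrb1b-10343 with 60 fragments, Klrb1f-9225 with 21 and Klrb1f+3386, in intron 1, with 23. The dKO-only sites ranked low too, at percentiles 21.4, 2.08 and 11.8 of the dKO list. The other Klrb1 sites were found in both lists with ratios whose intervals hold 1, among them Klrb1f+21238 with 54 fragments in WT and 50 in dKO, Klrb1b+17567 with 73 and 67, and Klrb1b-16938 and Klrb1b-19150, at the promoter and in an exon of Gm17395, with 130 and 78 and with 75 and 62.

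The Klrc, Klrd, Klre, Klri and Klrk genes follow in the complex. Klrd1 encodes CD94, which pairs with the Klrc products NKG2A, NKG2C and NKG2E to bind Qa-1. Klrk1 encodes NKG2D, the activating receptor for stress-induced ligands, and Klre1 pairs with the product of Klri1 or Klri2. In these 8 genes, 7 had a peak in WT and 8 in dKO, with 9 peaks in each list. Every one of the 9 WT peaks overlapped a dKO peak, whereas 30.1% of all WT peaks overlapped none. Of these WT peaks, 2 belong to 1 site, Klri2-6995.

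The Klrd1 promoter site had 57 fragments in WT and 45 in dKO, at percentiles 45.2 and 36.7, with a ratio of 1.16 (0.768 to 1.75). Klre1-18411, between Gabarapl1 and Klre1, ranked second among the receptor genes, at percentile 95.6 in WT with 107 fragments and 97.1 in dKO with 89, and a ratio of 1.22 (0.914 to 1.64). Klre1-2367 had 44 and 43 fragments, a ratio of 1.44 (0.923 to 2.24). Klrd1+10677, 3.16 kb beyond the 3′ end of Klrk1, had 43 and 24, a ratio of 0.822 (0.477 to 1.38). None of these sites differed between the pools beyond counting error. Higher in dKO were 3 sites whose intervals exclude 1. Klre1+3606, in intron 2 of Klre1, had 73 fragments in WT and 80 in dKO, a ratio of 1.61 (1.16 to 2.25). Klrd1+12082 had 87 and 97, a ratio of 1.64 (1.22 to 2.22). It lay 1.75 kb beyond the 3′ end of Klrk1, and moved from percentile 65.0 to 81.4. Klri2-6995 had 78 fragments in WT, where it was called as 2 peaks, and 86 in dKO, where it was 1 peak, a ratio of 1.62 (1.18 to 2.23). With fold enrichment in place of pileup its log2 ratio was 0.21 rather than 0.70. All 3 ratios were below 2.

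The opposite difference was seen upstream of Klrc1, the gene of the inhibitory receptor NKG2A. Klrc1-1637 had 60 fragments in WT and 18 in dKO, or 7.15 and 2.89 after scaling. It stood at percentile 71.8 of the WT list and 9.70 of the dKO list, and its width was 408 bp in WT and 134 bp in dKO. The ratio of 0.442 (0.245 to 0.758) was the lowest of the 31 shared sites, the single one beyond 2-fold lower in dKO and the single one with an interval below 1. It was the 1 peak assigned to Klrc1 in each list, and Klrc2, which lies beside Klrc1, and Klri1 share it within 20 kb. The NKG2 genes resemble each other closely: 65.3% of 100 bp windows of the Klrc2 body, 68.9% of Klrc1 and 81.3% of Klrc3 mapped back to their own place uniquely, beside 92.4% of windows on a grid over the genome. The window around Klrc1-1637 had no copy in the genome of at least 90% identity.

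The Klrc1 site and 2 sites near Klrk1 are shown next, since they differ between the pools or hold ATCAAAG, the core letters that Tcf1 and Lef1 bind. Capitals mark ATCAAAG, the Runx letters TGTGGTT, the AP-1 letters TGANTCA and the T-box letters TCACACC, each on either strand. The windows are chr6:129630528-129630728, chr6:129558490-129558690 and chr6:129577545-129577745 in the order printed.
Klrc1-1637: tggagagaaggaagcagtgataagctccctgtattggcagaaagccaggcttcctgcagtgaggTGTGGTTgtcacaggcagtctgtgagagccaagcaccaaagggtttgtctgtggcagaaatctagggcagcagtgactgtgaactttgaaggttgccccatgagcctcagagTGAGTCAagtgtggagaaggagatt
Klrd1+12082: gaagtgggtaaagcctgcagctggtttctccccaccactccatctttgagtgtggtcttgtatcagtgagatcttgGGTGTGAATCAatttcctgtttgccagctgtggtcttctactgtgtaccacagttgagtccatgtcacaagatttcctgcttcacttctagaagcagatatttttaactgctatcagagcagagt
Klrk1-3763: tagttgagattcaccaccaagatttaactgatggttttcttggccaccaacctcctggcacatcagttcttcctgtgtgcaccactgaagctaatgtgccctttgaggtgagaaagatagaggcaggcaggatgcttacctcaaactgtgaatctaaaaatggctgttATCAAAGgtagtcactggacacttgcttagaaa
Klrc1-1637 held a Runx and an AP-1 match and no Tcf/Lef match. In Klrd1+12082 the T-box match and an AP-1 match overlap. Klrk1-3763, upstream of the NKG2D gene, was found in dKO only, with 18 fragments at percentile 9.29, and held 1 of the Tcf/Lef matches.

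The Klra genes encode the Ly49 receptors, which bind classical MHC class I molecules, most of them as inhibitory receptors. Of these 14 genes, 4 had a peak in WT and 6 in dKO, with 3 and 5 peaks in all. The fold enrichment of the 3 WT peaks was 3.40 to 3.94, so that none of them passed the 4-fold criterion, and of the 5 dKO peaks 4 passed it, at 4.02 to 5.23. All were weak, 19 to 22 fragments in WT and 16 to 27 in dKO, and ranked between percentiles 2.66 and 8.0 in WT and 3.56 and 18.6 in dKO. The median background at these peaks was 4.86 fragments in WT and 4.36 in dKO. Over all peaks it was 5.74 in WT and 3.97 in dKO, so it was below the median in WT only. Klra5-53 had 19 fragments in WT and 22 in dKO, Klra6-4858 22 and 27, and Klra1-116 19 and 25. Their ratios were 1.70 (0.881 to 3.33), 1.81 (0.991 to 3.33) and 1.94 (1.02 to 3.72). All 3 were higher in dKO and below 2, and the interval of Klra1-116 alone excludes 1. With fold enrichment in place of pileup, the log2 ratio of Klra1-116 was 0.52 rather than 0.95. Its WT and dKO peaks overlap by less than 50% of the shorter one, and it was not a shared site where that much was required. Klra3-4883 and Klra1-18252, the latter in an exon of Gm6584, were found in dKO only, with 17 and 16 fragments. In the annotation Klra9 spans several of its neighbours, and its dKO peak is that of Klra3.

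These sites have near-identical copies among the Ly49 genes. Klra5-53 had 4 copies of at least 90% identity in the genome, Klra6-4858 5, Klra3-4883 3 and Klra1-116 1. The copy of Klra5-53 at Klra6, 114 kb away, was 96.5% identical and that at Klra1, 469 kb away, 92.3%. Both coincided with a peak in each list, whereas the aligned copies 280 and 425 kb away overlapped no peak in either. The latter lies beside the dKO-only peak Klra3-4883. A copy of Klra6-4858 at that place, chr6:130292200-130292401, was 92.1% identical and overlapped this dKO peak. The 3 sites found in both lists share the Runx letters, in capitals in the mm9 plus-strand windows chr6:129981730-129981930 and chr6:130336908-130337108 below and in that of Klra5-53 above.
Klra6-4858: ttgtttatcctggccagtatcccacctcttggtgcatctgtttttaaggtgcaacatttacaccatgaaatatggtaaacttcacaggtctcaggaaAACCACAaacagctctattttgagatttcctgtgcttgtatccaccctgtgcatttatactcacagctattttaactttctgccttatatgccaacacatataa
Klra1-116: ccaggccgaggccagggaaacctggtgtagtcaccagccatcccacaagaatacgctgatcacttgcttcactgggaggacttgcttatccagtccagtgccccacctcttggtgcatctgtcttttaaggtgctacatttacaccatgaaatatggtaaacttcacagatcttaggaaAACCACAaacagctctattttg
By the 100 bp windows, 77.0% to 99.6% of the Klra gene bodies mapped uniquely, with a median of 90.2%. The part of the copies in the low pileups was not tested.

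**Figure D2:**
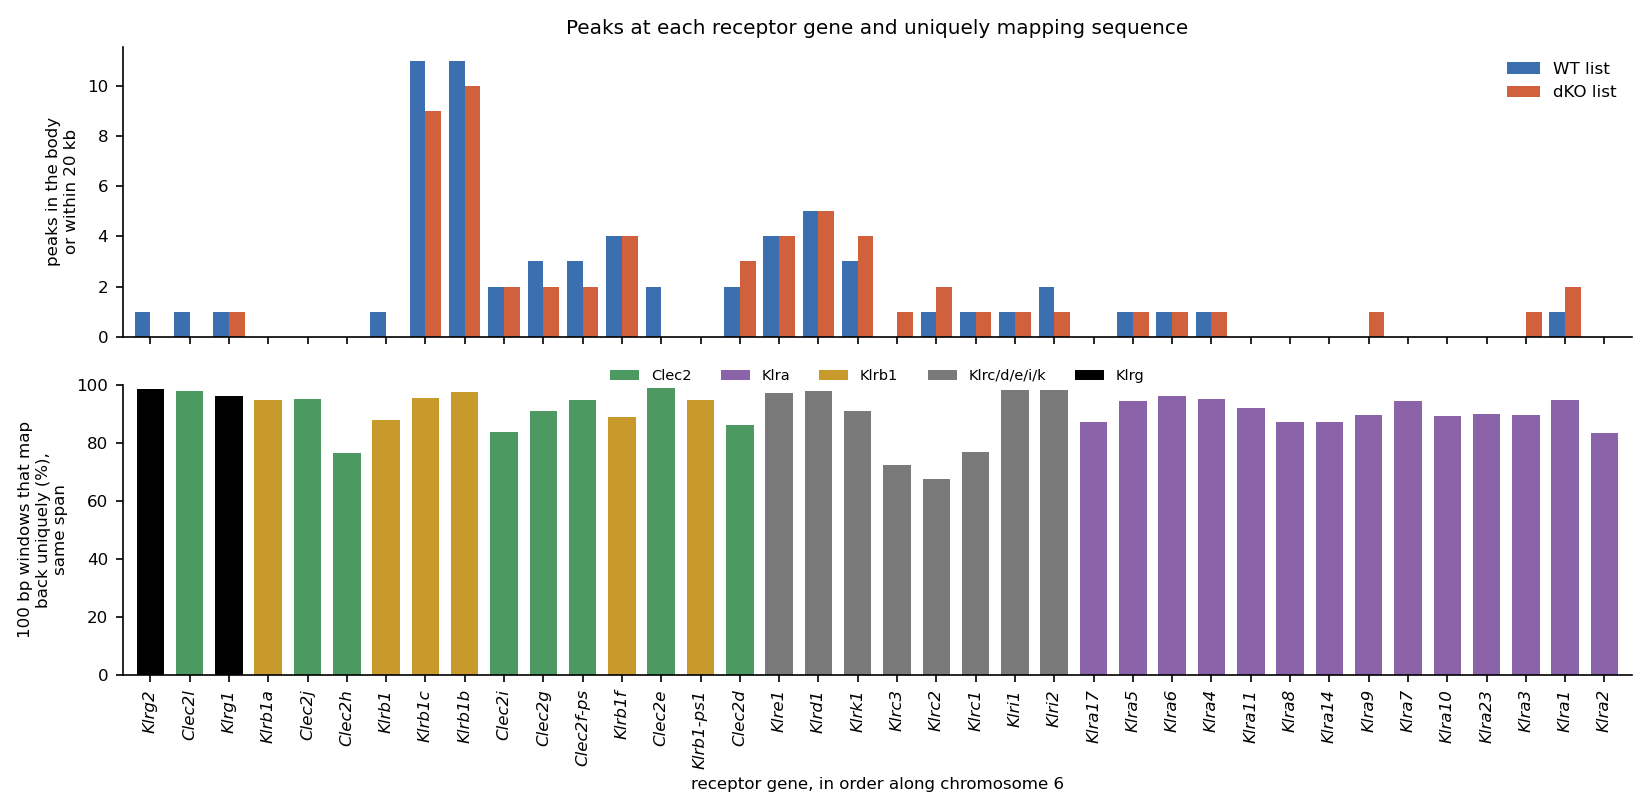
Number of peaks in the body or within 20 kb of each receptor gene in the WT and dKO lists (top), and percent of 100 bp windows of the same span that map back uniquely (bottom), for the 38 genes in order along chromosome 6. Klrb1c and Klrb1b have 11 WT peaks each, 12 genes have none in either list, and the lowest unique share, 67.5%, is at Klrc2.

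Klrg1, whose product binds cadherins and marks terminally differentiated effector cells, had 1 site in both lists, 9.05 kb upstream of its start. It had 38 fragments in WT and 17 in dKO, at percentiles 37.9 and 7.43, a ratio of 0.659 (0.349 to 1.2) whose interval holds 1. Klrg2 shared the single WT peak of Clec2l.

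Over all receptor genes, 9 of 41 WT peaks (22%, 95% Wilson interval 12 to 36.7%) had no overlapping dKO peak, beside 30.1% of all WT peaks. Conversely, 7 of 38 dKO peaks (18.4%, 9.22 to 33.4%) had no overlapping WT peak, beside 14.0% of all dKO peaks. Both intervals hold the share over all peaks. They count peaks as independent draws, but all peaks of a list come from the same pool. Some of the sites are also near-identical copies of each other. The intervals thus describe the shares only and cannot test a difference from all peaks. Genes with a WT peak and no dKO peak were Klrg2, Clec2l, Klrb1 and Clec2e, and those with the reverse were Klrc3, Klra9 and Klra3.

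**Figure D3:**
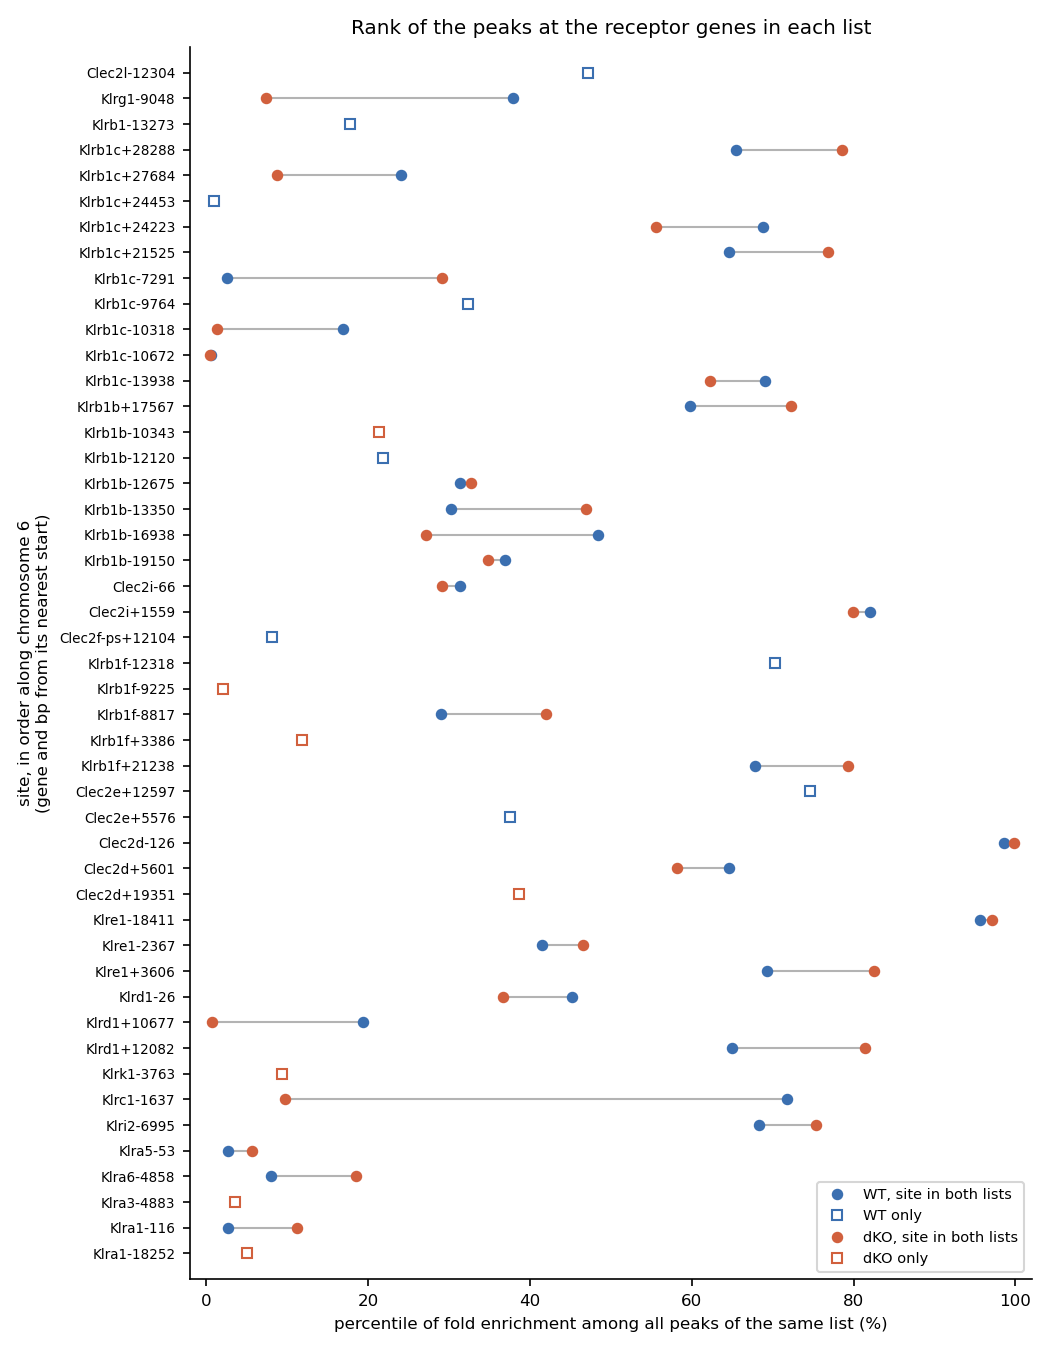
Percentile of fold enrichment within the WT list (blue) and the dKO list (orange) for the 47 sites in order along chromosome 6, with filled circles joined by a line for sites in both lists and open squares for sites in 1 list. The longest line is that of Klrc1-1637, from 71.8 in WT to 9.70 in dKO, and the Clec2d promoter stays at the right edge in both.

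Of the 31 sites found in both lists, 1 (Klrb1c-7291) was over 2-fold higher in dKO, beside 1.86% of all 21606 such sites, and 1 (Klrc1-1637) over 2-fold lower, beside 0.852%. Both lay over 1 kb from any start, where 3.16% of all shared sites were over 2-fold higher and 1.27% over 2-fold lower. The centred ratio was above 1 at 23 of the 31, with a median of 1.28. On the log2 scale this median was 0.36, where all shared sites have 0 by the centring and 11504 of them over 1 kb from any start have 0.09. For the 25 receptor-gene sites over 1 kb from any start the median was 0.34. By rank, 17 of 31 (54.8%) had the higher percentile in dKO, beside 37.6% of all shared sites and 42.0% of those over 1 kb from a start. The counting interval lay above 1 at 8 sites and below 1 at 1. Without the centring, scaled by fragments kept alone, it lay above 1 at 6 and below 1 at 1, and the median log2 ratio was 0.23. Of those 8, Klrb1c-7291, Klrb1c+21525 and Klra1-116 have near-identical copies.

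**Figure D4:**
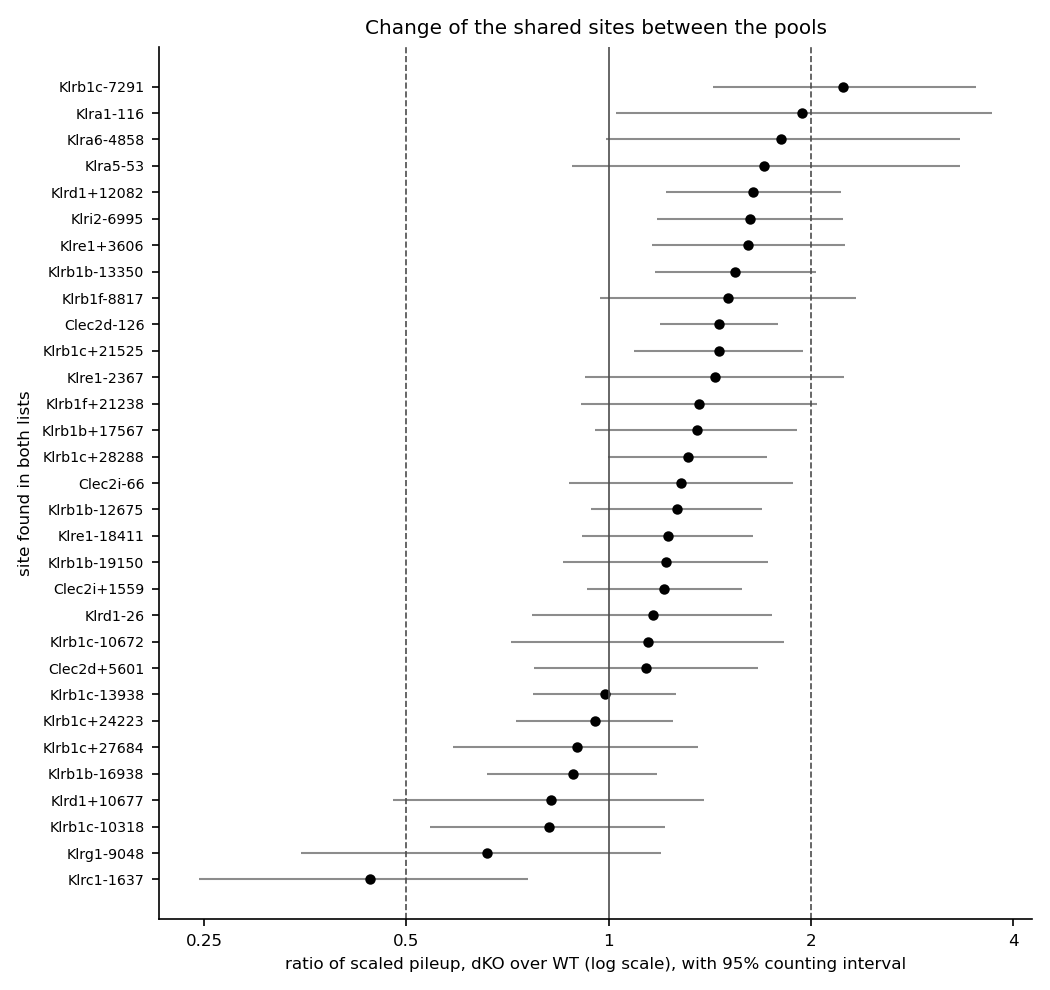
Ratio of scaled pileup, dKO over WT, on a log axis for the 31 sites found in both lists, with 95% counting intervals and dashed lines at 2-fold. Most points lie to the right of 1, and only Klrb1c-7291 at 2.23 and Klrc1-1637 at 0.442 lie past the dashed lines.

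ATCAAAG was found within 100 bp of the summit at 2 of the 47 sites (4.26%), beside 3.70% of all 34546 sites of both lists in windows of the same length. None of the 9 WT-only sites held it, where 6.83% of all WT-only sites did. So few sites cannot show a departure from that share. TGTGGTT was found at 10 sites (21.3%, all sites 10.3%), TGANTCA at 5 (10.6%, 6.45%) and TCACACC at 3 (6.38%, 3.26%). The median GC content of these windows was 45.8% at the receptor-gene sites and 52.2% over all sites. The motif counts are matches of letters and not bound sites. Of the 47 sites, 13 had a near-identical copy somewhere in the genome. Copies were searched from each site's own window. By this rule Klrb1f-8817, where the copy of Klrb1c-7291 lies, is not among the 13. Copies were not counted for all sites, so whether this share is unusual was not tested.

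Other genes of the same pathway were listed for comparison. Of all protein-coding genes, 66.7% in WT and 63.7% in dKO had a peak within 20 kb. A promoter peak was present at 45.9% in WT and 42.1% in dKO. The lists below are too short to show a departure from these shares. All 5 adaptors and phosphatases (Hcst, Tyrobp, Fcer1g, Ptpn6 and Ptpn11), through which the receptors signal, had a peak within 20 kb in each list, and 2 of 5 had a promoter peak in each. At the promoter of Hcst, the gene of the NKG2D adaptor DAP10, a peak of 35 fragments was found in dKO and none in WT, whereas at Ptpn11, the gene of the phosphatase SHP-2, a peak of 36 fragments was found in WT and none in dKO. Of 5 annotated ligand genes of Klrk1 and Klrd1 receptors, 3 had a peak in each list, and H2-T23, which encodes Qa-1, had a promoter peak in each, the highest of 63 fragments in WT and 58 in dKO. Of 5 other NK-type receptor genes, 4 had a peak in each list and 3 in WT and 2 in dKO had one at the promoter. Ncr1, which encodes NKp46, had none. Of 12 neighbouring genes, 9 had a peak in WT and 11 in dKO, with promoter peaks at 4 in each.

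Klraq1 had 4 peaks in WT and 3 in dKO. Its promoter site had 127 fragments in WT and 91 in dKO, a ratio of 1.05 (0.797 to 1.39), and the site 18.6 kb upstream had 107 and 82, a ratio of 1.13 (0.836 to 1.52). Neither differed beyond counting error. The WT-only peak, of 40 fragments, lay at the promoter of its neighbour Ston1.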

How the data were processed

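Per the labels and the study's methods, paired-end DNase-seq reads of 3 WT and 2 dKO replicates were aligned to mm9 with Bowtie2 2.2.5, uniquely mapped reads were kept, and replicates of a genotype were pooled by the authors. Per the file headers, peaks were called on each pool with MACS2 2.1.1.20160309 without a control, at a p-value threshold of 1e-05. The deposited pileup is a signal, the fragments of the pool over a summit, not scaled to depth. For fold enrichment, the authors' run divided pileup by a locally estimated background, which gives a deposited ratio. The deposited −log10 p and q values come from the authors' Poisson test of each pool against its own background. Each command line in the headers names 2 alignment files, apparently a file and its sorted copy, and the 167847468 and 124485926 fragments read are exactly double the 83923734 and 62242963 kept, which were used here as depth. From the deposited pileup and fold enrichment, the deposited −log10 p was recomputed within about 1% for over 99.8% of peaks (99.85% in WT, 99.84% in dKO). The fragment totals do not enter that step, which thus does not check the depth. Every peak lies inside its mm9 chromosome.

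The members and gene lists were chosen with earlier results of these data known. Genes and starts came from the GENCODE annotation of mm9. Every receptor gene with a peak is named, and the peaks described in full are those at promoters, in 1 list only, or among the 5 highest by fold enrichment in a list. Pileup was scaled to 10000000 fragments, and the dKO over WT ratio was divided by its median over the 21606 sites in both lists (0.916). Its 95% interval is the exact conditional binomial one, and a ratio past 2-fold was called. Copies were found with blastn 2.17.0 (from the summit and 100 bp on each side, at 90% identity or more along 80% or more of the length) and unique windows with minimap2 2.31 (100 bp, mapping quality above 10). Calculations were run in Python 3.11.15 (pandas 2.3.3, scipy 1.17.1). The overlap and interval steps were first tested on simulated data. One site's sequence and its letter match are not reported here. All deposited peaks were used, also those under the 4-fold enrichment that the methods asked for. No per-sample values were used.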

Additional observations from a re-analysis of the deposited data

How the results depend on the processing

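No paired analysis was possible because each genotype was deposited as 1 list called on its pooled replicates, and for the same reason no replicate could be left out. The counts of receptor-gene peaks depended on the peaks admitted. With a fold enrichment of at least 8, WT had 16 peaks at 15 genes, 3 of them in 1 list only, and dKO 13 peaks at 9 genes, 0 of them in 1 list only, with 13 sites in both lists, 9 of which had the higher percentile in dKO. With q under 1e-10, dKO had 13 genes with a peak and 4 peaks in 1 list only, and with the 20000 peaks of the highest −log10 p 25 peaks, 11 genes and 4 in 1 list only. With the criteria of the methods (4-fold enrichment, p and q), WT had 34 peaks at 19 genes and dKO 33 at 20, 9 of each in 1 list only. Within 10 kb in place of 20 kb, WT had 23 peaks at 15 genes and dKO 23 peaks. Scaled by fragments kept alone, the median log2 ratio was 0.23 in place of 0.36 and 6 sites had an interval above 1. With fold enrichment in place of pileup, 0 sites were over 2-fold higher in dKO, the median log2 ratio was 0.19, and Klri2-6995 had 0.21 in place of 0.70. Further alternatives were added after seeing the data. Without the sites that have a near-identical copy, 0 sites were over 2-fold higher and 5 had an interval above 1, and centring on distal sites changed no count by over 1.5 times. With 50 bp in place of 100 bp, 1 site held the Tcf/Lef letters. Klrc1-1637 was over 2-fold lower in dKO under every scaling and measure tried, at log2 ratios of -1.31 to -1.18. Klrb1c-7291 ranged from 0.93 to 1.16 and so crossed 2-fold, and the Klrd1 promoter from -0.04 to 0.22. The lowest pileups at these genes were 19 fragments in WT and 16 in dKO, and a site below the caller's threshold is not in the lists.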
